A study of Mus musculus with 2 samples.

Results

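The Rtl1-antisense microRNAs are a group of hairpin genes in the imprinted Dlk1-Dio3 domain of mouse chromosome 12. The 6 genes described here, Mir431, Mir433, Mir127, Mir434, Mir432 and Mir136, were chosen by symbol, and all 6 were found among the 2202 microRNA genes of the deposited tables by their GENCODE M21 identifiers. The rule that lists them uses no measured value, although the members were chosen with earlier results of these data known. The study sequenced small RNA with inserts under 30 nt from 2 libraries of 1 group, labelled as gastrocnemius, a calf muscle, of male B6CASTF1/J mice aged 4 days. B6CASTF1/J animals are F1 hybrids. No treatment or second genotype is given, and the libraries carry biological replicate numbers 1 and 2, separate biosamples and a shared donor identifier. Each file gives raw counts of reads per gene, in separate columns for the sense and the antisense strand.

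Rtl1 is a gene derived from a retrotransposon and is expressed from the paternal chromosome. The microRNAs on its opposite strand are expressed from the maternal chromosome, are fully complementary to the Rtl1 message and are known to guide its cleavage. A microRNA is cut from a hairpin into a 5p and a 3p arm, and the loaded arm finds other targets mainly through its seed, bases 2 to 8. The counts used here are per hairpin gene, so the arms are not separated, and they are not split by parental allele, so imprinting itself was not measured.

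The libraries stood apart in their tissue markers, whose lists were also chosen with earlier results of these data known. The skeletal muscle microRNA Mir206 had 652657 sense reads in replicate 1 but only 101 in replicate 2. The heart microRNA Mir208a had 59 in the former and 29718 in the latter. Replicate 2 thus went against its gastrocnemius label on this pair of genes, and replicate names below are names of libraries only. The 7 skeletal muscle markers together held 14.7% of replicate 1 and 0.0572% of replicate 2, nearly all of the former from Mir206. The other 6 held 0.0229% and 0.0540% and went both ways. Of these, Mir133b (427 and 10 reads) and Mir133a-1 (34 and 16) were called lower in replicate 2 by the test described below and Mir486 (456 and 1468) higher. Mir1a-1 (13 and 6) and Mir1a-2 (87 and 156) were not called, and Mir133a-2, with 2 reads in each, was not tested. Mir1a and Mir133a are annotated at several loci each. Multimapping reads, 35.7% of replicate 1 and 45.1% of replicate 2, were set aside, so counts of such genes can understate their microRNAs. Of the other lists, the 2 markers of slow muscle and heart held 0.0678% and 0.422%, and the 4 connective tissue markers 0.591% and 0.281%. Endothelial and smooth muscle markers held 2.54% and 2.17% of replicate 1 and 6.62% and 4.90% of replicate 2. Neither the only endothelial marker, Mir126a, nor the smooth muscle markers Mir143 and Mir145a were called different by the test. Erythroid, white blood cell and epithelial markers held 0.0220%, 0.0538% and 0.00401% of replicate 1 and 0.0979%, 0.293% and 0.0424% of replicate 2. The white blood cell markers went both ways. Mir150 (298 and 2178 reads) and Mir155 (534 and 5042) were called higher in replicate 2, Mir223 (726 and 345) lower, and Mir142 (839 and 1450) was not called. Of 8 neural markers, with 0.108% and 0.0299%, the 6 Mir9 and Mir124a genes were at 0 in both libraries. These too are annotated at several loci each, so their zeros do not show absence. The part of these differences in the results below was not tested. Sense reads assigned to microRNA genes came to 4458853 in replicate 1 and 3073086 in replicate 2, and CPM (reads per 1000000) and shares are relative to these totals. In bulk tissue, fewer cells that make a microRNA and less of it per cell cannot be told apart.

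All 6 hairpins lie on the plus strand within 4942 bases, at chr12:109590447-109595388 (mm10). Rtl1 is annotated on the minus strand at 109589193 to 109600330, and each hairpin falls inside its large coding exon and within the coding sequence of 5232 bases. Counted from the first base of the Rtl1 start codon, Mir136 covers coding bases 16 to 77, Mir432 bases 374 to 448, Mir434 bases 805 to 898, Mir127 bases 2489 to 2558, Mir433 bases 3566 to 3689 and Mir431 bases 4867 to 4957. The order along the chromosome is therefore Mir431, Mir433, Mir127, Mir434, Mir432 and Mir136, and Rtl1 is read through them in reverse. Starts of neighbouring hairpins were 1268, 1131, 1660, 450 and 371 bases apart in that order.

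The mature sequences are shown because they carry both properties of the group, complementarity to Rtl1 and separate seeds. RefSeq (GRCm38.p6) gave 11 mature sequences for the 6 genes, both arms for 5 of them and a single one for Mir432. They are written 5′ to 3′ with the seed in capitals:
miR-431-5p: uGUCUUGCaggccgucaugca
miR-431-3p: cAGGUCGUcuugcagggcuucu
miR-433-5p: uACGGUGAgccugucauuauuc
miR-433-3p: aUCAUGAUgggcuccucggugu
miR-127-5p: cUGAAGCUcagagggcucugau
miR-127-3p: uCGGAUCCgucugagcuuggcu
miR-434-5p: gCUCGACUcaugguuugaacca
miR-434-3p: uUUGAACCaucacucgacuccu
miR-432: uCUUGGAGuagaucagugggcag
miR-136-5p: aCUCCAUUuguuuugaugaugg
miR-136-3p: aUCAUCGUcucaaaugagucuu

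The 11 sequences had 11 distinct seeds, so no members can be grouped by a shared seed. None of these seeds occurred in another of the 1738 mature sequences of the same table. Lengths ran from 21 to 23 nt, so reads per gene were compared between members without a length correction. No other difference in read yield between sequences was corrected for, so orders of members below are orders of reads. G and C made up 36.4% of the bases in both Mir136 arms and 59.1% in miR-127-3p and miR-431-3p.

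Each of the 11 sequences had a perfect complement in the annotated Rtl1 transcript, which follows from the shared position on opposite strands. The sites of 3 members are shown to make the pairing visible, as Rtl1 transcript sequence in DNA letters, 5′ to 3′, with the bases opposite the seed in capitals:
Rtl1 site of miR-127-3p: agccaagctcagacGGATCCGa
Rtl1 site of miR-431-5p: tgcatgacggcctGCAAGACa
Rtl1 site of miR-136-5p: ccatcatcaaaacaAATGGAGt
Read from its 3′ end, each site is the letter-by-letter complement of the microRNA above. The miR-127-3p site covers bases 2642 to 2663 of the transcript, the miR-431-5p site bases 5072 to 5092 and the miR-136-5p site bases 199 to 220.

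The 6 genes together held 10.69% of the microRNA reads of replicate 1 (476607 reads, exact Clopper-Pearson 95% interval 10.66 to 10.72%) and 0.308% of replicate 2 (9461 reads, 0.302 to 0.314%). The mean share was 5.50% ± 7.34 (SD, n = 2 libraries), so the spread exceeded the mean, which describes neither library. Of the 6, 5 had reads and all of these 5 were far lower in replicate 2, while Mir432 had none in either library. Intervals cover counting error only and leave out the spread between biological samples. PCR copies of a molecule are counted as separate reads, so the intervals can be too narrow even for counting error.

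Mir127, studied in muscle for its part in the differentiation of satellite cells, was the leading member in both libraries. It had 269519 sense reads in replicate 1, a level of 60446 CPM (60225 to 60667), and 7304 in replicate 2, a level of 2377 CPM (2323 to 2432). It ranked 2 among all microRNA genes of replicate 1 and 41 in replicate 2. Within the Dlk1-Dio3 domain it ranked 1 of 59 genes of the same strand in both libraries. Ranks given here and below leave out multimapping reads, so microRNAs annotated at several loci can stand too low in them.

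Mir431, which targets the satellite cell factor Pax7, was the next most abundant in replicate 1 with 124466 sense reads, a level of 27914 CPM (27762 to 28068). In replicate 2 it had 809 reads, 263 CPM (245 to 282), and it ranked 9 in replicate 1 and 110 in replicate 2. Mir433, studied as a repressor of the bone factor Runx2, had 40763 reads in replicate 1 and 413 in replicate 2, levels of 9142 CPM (9054 to 9231) and 134 CPM (122 to 148). Its rank was 22 in the former and 142 in the latter.

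Mir434, described in skeletal muscle as a microRNA that falls with age, had 39635 sense reads in replicate 1, 8889 CPM (8802 to 8977), and 911 in replicate 2, 296 CPM (278 to 316). Its ranks were 23 and 107. Mir136 was the lowest of the detected members, with 2224 reads (499 CPM, 478 to 520) against 24 (7.81 CPM, 5.00 to 11.6). It ranked 113 and 275. Mir432 had 0 sense and 0 antisense reads in both libraries, which allows a level of up to 0.673 CPM in replicate 1 and 0.976 CPM in replicate 2. Its hairpin shares no stretch of 22 nt with another annotated microRNA gene.

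The order of levels in replicate 1 was Mir127, Mir431, Mir433, Mir434 and Mir136, and neighbours differed beyond counting error, although Mir433 had only 1.03 times the reads of Mir434 (1.01 to 1.04). In replicate 2 the order was Mir127, Mir434, Mir431, Mir433 and Mir136. There Mir434 had 1.13 times the reads of Mir431 (1.02 to 1.24), a margin close to counting error. Mir127 at the top and Mir136 at the bottom of the detected members kept their places, and the 3 between them did not keep one order.

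**Figure D1:**
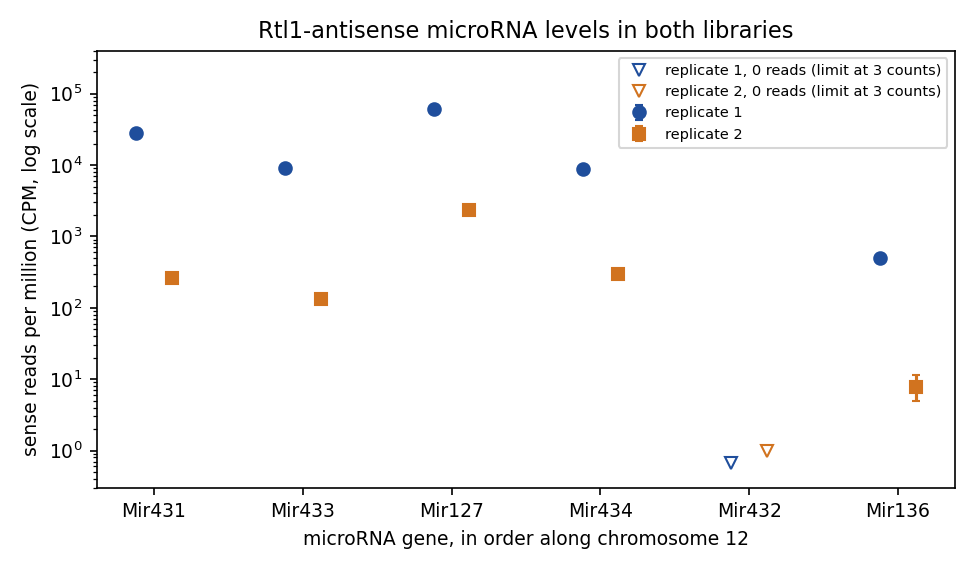
Sense read levels (CPM, log scale) of the 6 genes in order along chromosome 12, as circles for replicate 1 and squares for replicate 2 with exact 95% counting intervals, and open triangles at the limit of 3 counts where no read was found. The 5 detected genes sit at 499 to 60446 CPM in replicate 1 and at 7.81 to 2377 CPM in replicate 2, and Mir432 is undetected in both.

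Differences between the libraries are given as log2 ratios of replicate 2 over replicate 1, scaled by the trimmed mean of M values (TMM) with a prior count of 1. A gene was called with a Benjamini-Hochberg adjusted p under 0.05 from a two-sided exact binomial test over all 410 genes with at least 10 reads, provided that its log2 ratio was also 1 or more away from 0. The comparison is between a pair of libraries rather than conditions, and its p-values reflect counting noise alone. Of the 5 tested members, 5 were lower in replicate 2, where 36.1% of all tested genes were called lower (148 of 410). Their median log2 ratio was −6.56, against −0.33 over all tested genes.

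Mir431 had the lowest ratio of the members, at −7.35 (95% counting interval −7.46 to −7.26). Mir433 followed at −6.71 (−6.86 to −6.57) and Mir136 at −6.56 (−7.27 to −6.05), and the intervals of this pair overlapped. Mir434 stood at −5.53 (−5.63 to −5.44) and Mir127 at −5.29 (−5.33 to −5.26). The most abundant member thus had the ratio nearest to 0, and the difference of Mir431 exceeded that of Mir127 by more than the counting error of either. On the linear scale these ratios made Mir431 164 times and Mir127 39.3 times lower in replicate 2.

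Replacing TMM by DESeq2 size factors or by total reads called the same 5 genes, where 31% and 28% of all tested genes were lower. So did TMM taken from genes outside the domain, where 38.3% were lower. These scalings moved the median of all genes by 0.26, 0.59 and −0.13. The split of all calls was 148 lower and 72 higher with TMM, 127 and 100 with DESeq2 size factors, and 115 and 135 with total reads. With the edgeR exact test and a dispersion pooled over both libraries, 0 of 410 genes were called, the members included at adjusted p-values from 0.657 to 0.722. At an unadjusted p under 0.05 there were 28 of 410 genes, 3 of the 5 tested members among them. That dispersion holds the very difference under test.

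**Figure D2:**
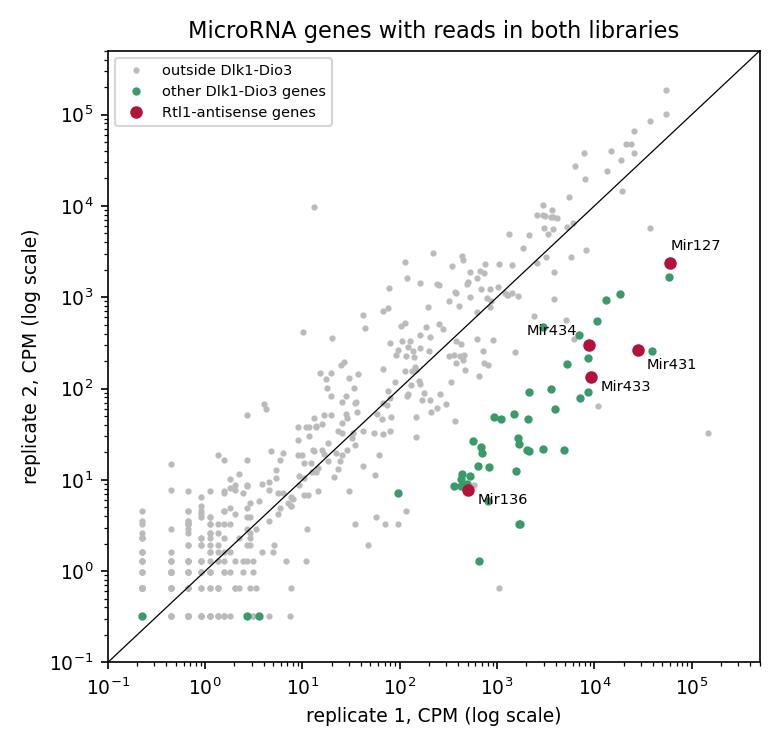
Levels of the 521 microRNA genes with reads in both libraries, replicate 1 on the x axis and replicate 2 on the y axis (CPM, both log scales), with the diagonal of equal levels. The 5 detected Rtl1-antisense genes (red) lie below the diagonal among the other Dlk1-Dio3 genes (green), from Mir136 at 499 and 7.81 CPM to Mir127 at 60446 and 2377 CPM.

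The makeup of the group also differed between the libraries, and this does not depend on how they are scaled. Mir127 supplied 56.5% of the reads of the 6 genes in replicate 1 (56.4 to 56.7%) and 77.2% in replicate 2 (76.3 to 78.0%). Mir431 supplied 26.1% (26.0 to 26.2%) and 8.55% (7.99 to 9.13%). For Mir433 the shares were 8.55% (8.47 to 8.63%) and 4.37% (3.96 to 4.80%), for Mir434 8.32% (8.24 to 8.39%) and 9.63% (9.04 to 10.2%), and for Mir136 0.467% (0.447 to 0.486%) and 0.254% (0.163 to 0.377%). Mir127 and Mir434 therefore held more of the group in replicate 2, and Mir431, Mir433 and Mir136 less.

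**Figure D3:**
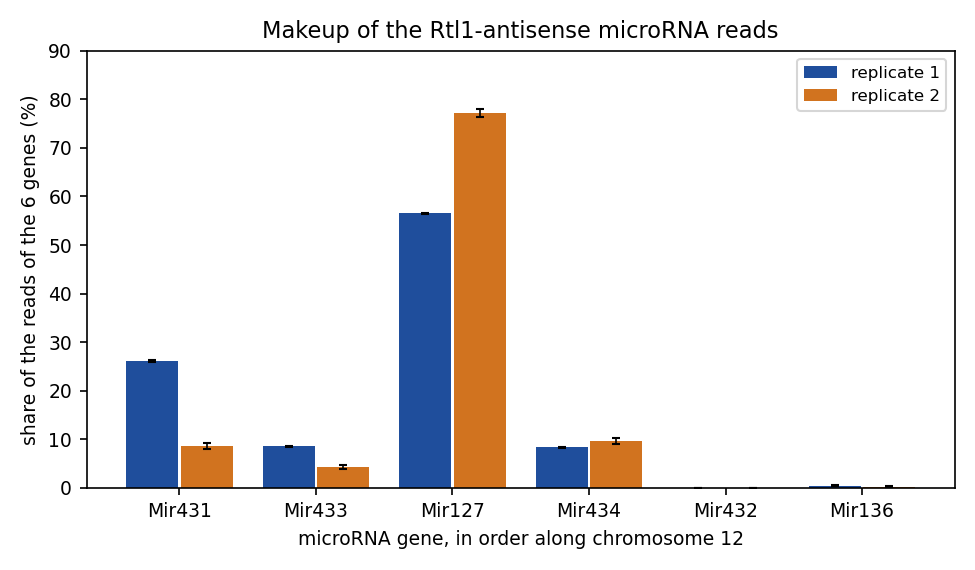
Share of the summed sense reads of the 6 genes (%) by gene, in order along chromosome 12, with 1 bar for each library and exact 95% counting intervals. Mir127 is the tallest bar in both, at 56.5% and 77.2%, and Mir431 is next in replicate 1 at 26.1%, against 8.55% in replicate 2.

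Set against Mir127 within the same library, Mir431 had 46.2 reads for every 100 of Mir127 in replicate 1 (45.9 to 46.5) and 11.1 in replicate 2 (10.3 to 11.9), a 4.17-fold difference. Mir433 had 15.1 (15.0 to 15.3) and 5.65 (5.11 to 6.24) by the same measure, a 2.67-fold difference. Mir136 had 0.825 (0.791 to 0.860) and 0.329 (0.210 to 0.489), a 2.51-fold difference that rests on 24 reads in replicate 2. Mir434 had 14.7 (14.6 to 14.9) and 12.5 (11.6 to 13.4), only 1.18-fold apart. Mir127 and Mir434, separated by 1660 bases, thus kept the nearest proportion among these pairs, though with intervals that did not overlap, and the proportion of Mir433, 1131 bases from Mir127 on its other side, differed more.

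Mir433 and Mir136 also kept a proportion that could not be told apart at this depth, with 5.46 reads of Mir136 for every 100 of Mir433 in replicate 1 (5.23 to 5.69) and 5.81 in replicate 2 (3.68 to 8.77). Mir431 had 3.05 times the reads of Mir433 in replicate 1 (3.02 to 3.09) and 1.96 times in replicate 2 (1.74 to 2.21). Log2 ratios did not follow the order along the chromosome. They ran −7.35, −6.71, −5.29, −5.53 and −6.56 from Mir431 to Mir136, nearest to 0 in the middle of the group.

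The 6 genes held almost the same part of the Dlk1-Dio3 microRNA reads in both libraries. They took 32.5% of the domain's reads in replicate 1 (32.4 to 32.6%) and 31.6% in replicate 2 (31.1 to 32.2%), a gap just beyond counting error. Single members differed in opposite directions within it. Mir127 held 18.4% (18.3 to 18.4%) and 24.4% (23.9 to 24.9%) of the domain, and Mir431 8.48% (8.44 to 8.53%) and 2.71% (2.52 to 2.90%). Without Mir127, the other members held 14.1% and 7.21% of the domain.

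Neighbouring genes of the domain on the same strand were lower in replicate 2 as well. On the Meg3 side, before Mir431, 8 of 8 tested genes of 9 were lower with a median log2 ratio of −7.21. On the Rian and Mirg side, after Mir136, 39 of 39 tested genes of 44 were lower with a median of −5.95. Over all tested genes 148 of 410 were lower, and outside the domain 93 of 355. Among the tested neighbours, 1 on the Meg3 side and 4 on the Rian and Mirg side had no reads in replicate 2. These passed the minimum of 10 reads through replicate 1 alone and could not have been called higher. Mir3070b on the Meg3 side (16 and 1 reads) and Mir410 on the Rian and Mirg side (2902 and 4) also reached that minimum only through replicate 1. Both medians were the same with genes lacking reads in replicate 2 set at 3 counts, and the summed reads gave −6.16 (−6.23 to −6.09), −5.64 (−5.66 to −5.62) and, for the Rtl1-antisense genes, −5.74 (−5.77 to −5.71). The leading genes of the sides were Mir337, with 30932 and 1195 reads and a ratio of −4.78, and Mir411, with 260343 and 5052 reads and a ratio of −5.78. Members' ratios lay inside the range of the domain, which ran from −9.53 to −3.15 on that strand.

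**Figure D4:**
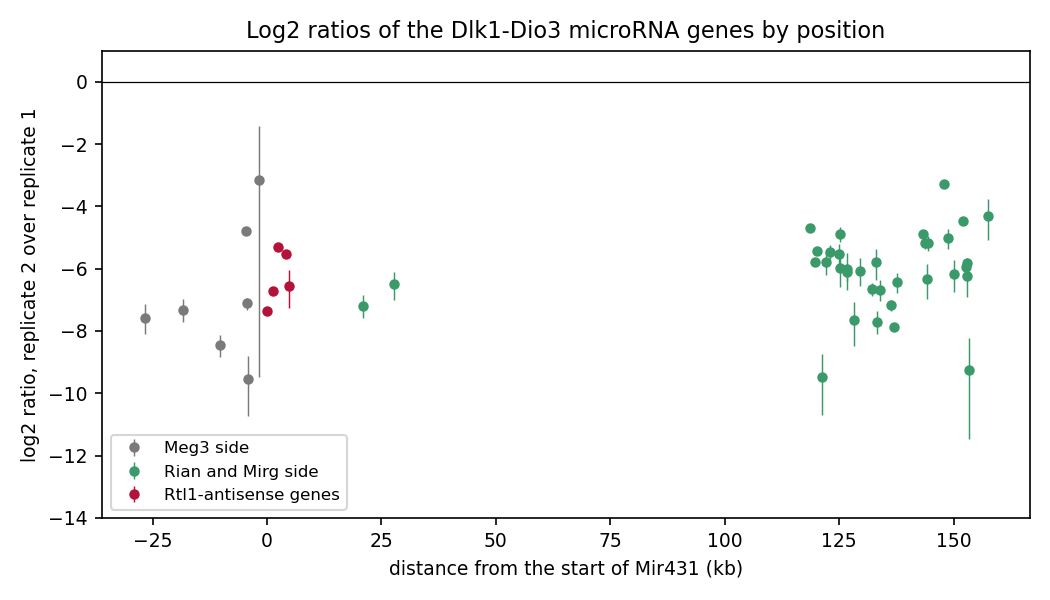
Log2 ratio of replicate 2 over replicate 1 for the 47 tested same-strand Dlk1-Dio3 microRNA genes with reads in both libraries, against distance from the start of Mir431 (kb), with 95% counting intervals (5 genes without reads in replicate 2 are not drawn). The Rtl1-antisense genes (red) sit between −7.35 and −5.29, inside the range of the genes on either side, and all points lie below 0.

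The genes most like the group outside the domain were found by their ratio. Among 145 genes with a mean of at least 100 CPM, the 3 nearest to the summed ratio of −5.74 over these 2 libraries were Mir615 at −6.62 (2589 and 27 reads), Mir483 at −4.78 (27493 and 1066 reads) and Mir10b at −3.79 (22639 and 1743 reads). Mir615 and Mir10b lie in Hox clusters and Mir483 in the imprinted gene Igf2. The distances were 0.88, 0.97 and 1.96 log2 units.

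Reads on the strand of Rtl1 were rare at all 6 genes. In the antisense column, Mir431, Mir433 and Mir432 had 0 reads in both libraries, and every member had 0 in replicate 2. In replicate 1, Mir127 had 8 antisense reads, 0.00297% of its reads on both strands (0.00128 to 0.00585%), Mir434 had 12, or 0.0303% (0.0156 to 0.0529%), and Mir136 had 28, or 1.24% (0.828 to 1.79%). Over 2130 microRNA genes outside the group with no overlapping microRNA gene, antisense reads were 0.00107% in replicate 1 (0.000756 to 0.00148%) and 0.00277% in replicate 2 (0.00212 to 0.00356%). Mir434 lay above that level in replicate 1, and the interval of Mir127 overlapped it.

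The zeros of replicate 2 do not show a difference from replicate 1. A count of 0 there allows up to 0.0411% for Mir127, 0.329% for Mir434 and 12.5% for Mir136, each above the share found in replicate 1. A change in the antisense share was thus not detectable at this depth.

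Mir136 is the member with an annotated microRNA gene on the opposite strand. Mir3071 covers 109595318 to 109595397 on the minus strand, the strand of Rtl1, and contains the whole 62 bases of the Mir136 hairpin. Its mature sequences are shown because they occupy nearly the same bases as those of Mir136 on the other strand:
miR-3071-5p: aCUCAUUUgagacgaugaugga
miR-3071-3p: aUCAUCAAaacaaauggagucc
miR-3071-3p and miR-136-5p overlap by 20 bases, and miR-3071-5p and miR-136-3p by 19. The 28 antisense reads of Mir136 in replicate 1 equal the 28 sense reads of Mir3071, and the 2224 sense reads of Mir136 equal the antisense count of Mir3071, so both columns list the same reads for this pair. In the unstranded column both genes stood at 0 in both libraries. That column sets reads over overlapping genes aside as ambiguous, 537662 of them in replicate 1 and 864996 in replicate 2, against 0 in the sense column. The level of Mir136 can therefore be read only from the strand-specific columns. The other members had unstranded counts equal to the sum of their sense and antisense reads.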

How the data were processed

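MicroRNA genes were counted in 2 libraries that the labels place in 1 group. The authors deposited raw read counts per gene for both strands together, the sense strand and the antisense strand; assembly mm10 and annotation GENCODE M21 are named in the deposited description files. The layout, with 4 summary lines, is that of STAR gene counts, which set multimapping reads aside; neither aligner nor trimming is given in the sources used here. Summary lines stayed out of library sizes and tests. In replicate 1 they held 9.97% unmapped, 35.7% multimapping and 2.05% unassigned reads, and in replicate 2 these were 8.60%, 45.1% and 3.83%.

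Sense counts were compared with TMM factors (edgeR 4.0.16, R 4.3.3) computed on genes with at least 10 reads. Intervals at 95% are exact binomial, and the limit at a count of 0 is 3 counts. P-values measure only the spread expected from counting. There is no second condition, so no quasi-likelihood fit was made. Alternatives were DESeq2 1.42.0 size factors, total reads, other count minimums, a prior count of 5, the unstranded column, the pooled-dispersion edgeR test, other share denominators, and, added after seeing the data, TMM outside the domain. The binomial comparison was also run on Poisson draws for 2 libraries, with 415 genes tested. It found 88 of 101 genes given a log2 ratio of 1.5 and 96 of 98 given a ratio of 3. Among 216 genes drawn without a difference, 1 was a false call. Poisson draws vary by counting alone, which is what the binomial test assumes. These rates therefore cannot show how many calls between the real libraries are false.

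Genes named are the 6 members, opposite-strand genes within them, the leading domain gene on each side, the 3 nearest genes outside the domain and the tissue markers. Members and lists were chosen with earlier results of these data known. All 2202 identifiers matched GENCODE M21. Python 3.11.15 with scipy 1.17.1, numpy 2.4.6 and pandas 2.3.3 was used.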

Additional observations from a re-analysis of the deposited data

Results flagged for a closer look

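Antisense reads at 3 members of the group exceeded the 3 counts that a count of 0 allows, in a column that the comparison of the libraries does not use. In replicate 1 Mir127 had 8 antisense reads, Mir434 had 12 and Mir136 had 28. Replicate 2 had 0 at each. The 28 reads at Mir136 are also listed as sense reads of Mir3071, the microRNA gene annotated on the opposite strand there, and no such gene is annotated over Mir127 or Mir434.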

How the results depend on the processing

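The 5 calls were made again with DESeq2 size factors, total reads, no minimum count, a minimum of 100 reads, a prior count of 5 and TMM outside the domain. The unstranded column gave 4, since Mir136 has no reads there. Of all tested genes, 31%, 28% and 38.3% were lower with DESeq2 size factors, total reads and TMM outside the domain. That share was not computed for the other count minimums, the prior count of 5 or the unstranded column, so the member calls there have no background. The edgeR exact test with pooled dispersion called 0 of 410 genes and so 0 members, and at an unadjusted p under 0.05 it gave 28 of 410 genes and 3 of 5 members. Over all these settings the log2 ratio of Mir431 ran from −7.49 to −6.73, of Mir433 from −6.84 to −6.09, of Mir136 from −6.69 to −5.95, of Mir434 from −5.66 to −4.90 and of Mir127 from −5.43 to −4.67. The share of the 6 genes was 5.59% of all reads in replicate 1 and 0.131% in replicate 2, 13.7% of replicate 1 without the rest of the domain, and 12.1% and 0.427% in the unstranded column, by construction of those denominators. The Mir127 share of the group in replicate 1 was 56.8% in the unstranded column, where the Mir136 reads are missing. With either library left out, the group's share ran from 0.308 to 10.7% and the Mir127 share of the group from 56.5 to 77.2%. No paired analysis was possible because the labels give a single group. Depth limits Mir136 in replicate 2 (24 reads) and all antisense shares there.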

Other observations

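Of 8 microRNA genes annotated on the opposite strand of the Dlk1-Dio3 domain, Mir3071 among them, 3 had enough reads to be tested. All 3 were called lower in replicate 2, where 36.1% of all tested genes were (148 of 410), and 2 of the 3 had no reads there. These 3 reached the minimum of 10 reads only through replicate 1 and could not have been called higher, so no conclusion is drawn from their calls. The summed sense reads of all 8 genes were 213 in replicate 1 and 2 in replicate 2. The Rtl1-antisense genes had 476607 and 9461.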
